A study of Mus musculus with 47 samples.

Results

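The hippocampal transcriptome of old female mice was compared between day 4 and day 1 after induction of sepsis. The comparison rests on 7 of the 47 libraries of the series, 4 from day 1 (replicates 1, 2, 3 and 4) and 3 from day 4 (replicates 2, 4 and 7), and on the 11700 of 28032 genes whose mean over these 7 libraries reached 5 CPM (counts per 1000000 reads). All 7 mice were C57BL/6 females aged 18 to 22 months. Each had undergone cecal ligation and puncture (CLP), in which the ligated cecum is perforated so that gut bacteria enter the abdomen, with buprenorphine for pain, the antibiotic imipenem, and restraint in a cone. The day 1 mice were restrained once, shortly before tissue was taken. The day 4 mice were restrained on days 2 to 4, the last time also shortly before tissue was taken, and had received more antibiotic. Days, the number of restraints and treatment therefore cannot be told apart. Day 4 mice were survivors, since some old mice died earlier. The 4 old female controls were age-matched mice from the home cage with no surgery, anesthesia or restraint, so a difference from controls covers all of these. The same change was examined in young females aged 3 to 5 months and in old males aged 18 to 22 months, which had also undergone CLP and gave 4 libraries on each day. Each library was made from poly(A) RNA of the whole hippocampus of 1 mouse, and values are CPM scaled by the trimmed mean of M-values (TMM). Single-library values follow this order of replicates. A log2 change is on the scale of log2(CPM + 1) and stands with its standard error, and group means stand with their SD (n = 4 for controls and day 1, n = 3 for day 4).

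Sepsis reaches the brain through circulating cytokines and through the stress axis, which ends in the release of glucocorticoids from the adrenal gland. Glucocorticoids enter the nucleus with their receptor and raise a well-known set of genes in brain cells, among them Fkbp5, Sgk1, Per1 and Tsc22d3. Cytokines of the interleukin-6 family act through STAT3, whose target Socs3 limits the same pathway, and astrocytes exposed to them raise Lcn2, Serpina3n and Gfap. Microglia, the resident macrophages of the brain, lower the receptors P2ry12, Cx3cr1 and Tmem119 when they leave the resting state. Oligodendrocytes make myelin and with it much of the cholesterol of the brain.

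The tissue was checked against marker genes. Markers of excitatory neurons summed to 4903 to 6026 CPM on day 1 and 5209 to 5998 CPM on day 4, CA1 markers to 488 to 561 and 536 to 588 CPM, and markers of T and B cells to at most 0.588 CPM in the 7 libraries. The sums did not overlap between days for CA2 markers, at 157 to 178 and 185 to 203 CPM, for thalamus markers, at 62.0 to 69.4 and 41.3 to 58.9 CPM, and for astrocyte markers, given below. The part of these in the results was not tested. Xist ranged from 323 to 443 CPM, and 4 Y-linked genes together did not exceed 0.197 CPM, as the labelled sex requires. Depth was alike, at an estimated 21022680 to 23029507 reads per library. Choroid plexus, which lies against the hippocampus and is not part of it, was unevenly included: its 10 markers summed to 4280 CPM in day 1 replicate 3 and 2449 CPM in day 4 replicate 2, against 94.7 to 279 CPM in the other 5 libraries. Control replicate 3 was likewise high, at 2744 CPM. Red blood cell markers summed to 1069, 311 and 41.3 CPM in day 4 replicates 2, 4 and 7 and to 135 to 394 CPM on day 1. Endothelial and pericyte markers were highest in day 1 replicate 2, at 235 and 232 CPM.

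**Figure D1:**
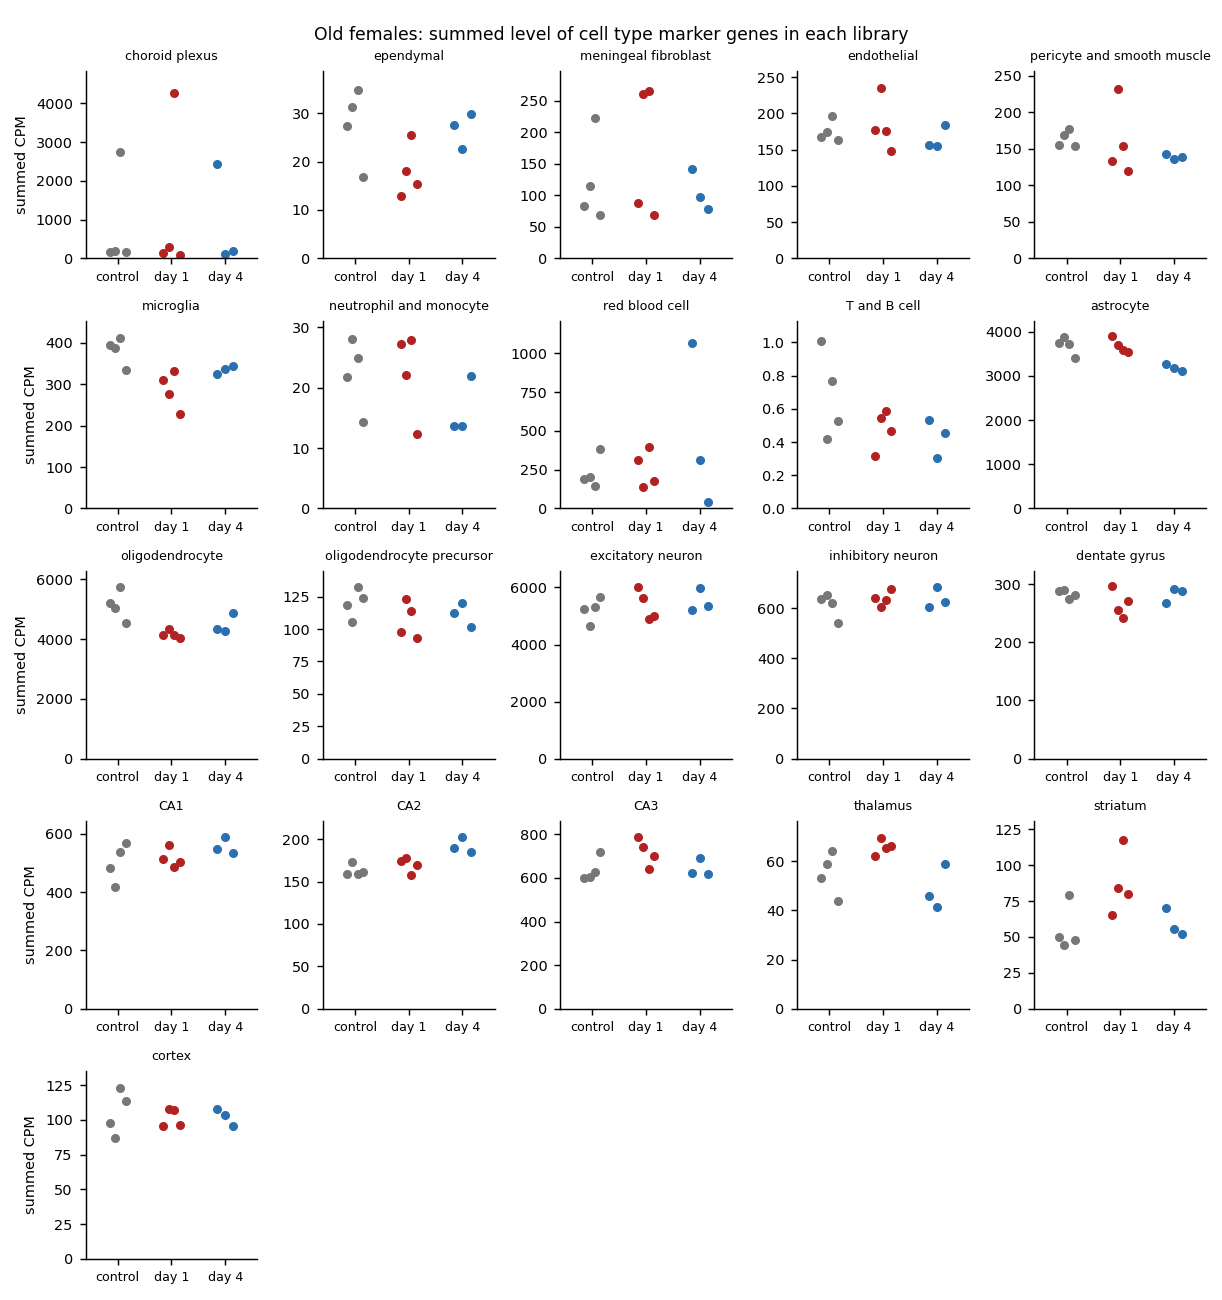
Summed CPM of marker genes of 21 cell types and regions in each old female library (points; gray, 4 controls; red, 4 day 1; blue, 3 day 4), each panel on its own axis from 0. The choroid plexus panel shows 1 high library in every group, while neuronal and regional sums overlap between days in most panels.

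Between day 1 and day 4, 2715 genes changed at the study's threshold of an unadjusted p below 0.01, which is 23.2% of the genes tested (limma, moderated statistics on log2 of CPM plus 1). Of these, 1520 (13%) were higher and 1195 (10.2%) were lower on day 4. Which direction held more genes depended on the scaling: there were 1380 rises and 1412 falls with median of ratios size factors, and 1516 rises and 1646 falls once GC content was corrected for. The unmoderated F test, the kind of test the study used, called 1991 genes. An adjusted p below 0.05 was reached by 2902 genes (24.8%), so the p threshold was the stricter of both. In 4196 genes (35.9%) no day 4 library overlapped a day 1 library. Without the 2 libraries high in choroid plexus genes, 1909 genes were called, 1071 of them higher. Leaving out day 4 replicate 4 lowered the number of higher genes from 1520 to 912. The median log2 change of all genes was 0.02, and 96 called genes rose and 151 fell by more than 1 log2 unit, on a scale that understates changes of genes with low values. Higher and lower genes had like base composition, with a median GC content of 50.2% and 51.0% of the longest transcript against 49.8% in genes not called. The median length of that transcript was 3388 bases in higher genes, 4076 in lower genes and 3549 in genes not called. The part of length in the calls was not tested. Of the higher and lower genes, 94.9% and 96.9% were protein coding. At the edge of the expression rule, Ccl28 averaged 5.003 CPM and was tested, and Rpia averaged 4.997 CPM and was not.

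Day 4 libraries lay nearer to controls than to day 1 libraries. Across the 11700 genes, the correlation of log2 values ranged from 0.978 to 0.989 between day 4 and control libraries and from 0.952 to 0.966 between day 4 and day 1 libraries, a description across genes, which are not independent. Against the same 4 controls, 3141 of 11745 genes (26.7%) were called on day 1 and 568 of 11704 (4.85%) on day 4. At an adjusted p below 0.05 the numbers were 3482 on day 1 and 42 on day 4. Most genes called on day 4 thus did not pass adjustment. Where a difference of day 4 from controls stands below without an adjusted p, whether it passes adjustment is not shown. The count on day 4 fell to 208 without day 4 replicate 4, to 324 without day 4 replicate 7 and to 258 without control replicate 1. These comparisons share libraries with that of day 4 and day 1, and their values are therefore only set side by side below.

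Genes that glucocorticoids raise were lower on day 4. Of the 18 genes that the study named as glucocorticoid-responsive, 16 fell (88.9%, against 10.2% of all genes) and none rose, with a median log2 change of -0.92 against 0.02 over all genes. That list was chosen on these libraries, so its direction is not independent evidence. A further list of 20 genes linked to glucocorticoids gave 15 lower (75%), none higher and a median of -0.81. It shares Sult1a1 with the first list and holds genes that the study names from this series, among them Il6ra, Rhob, Tob2 and Plin4. It is therefore not independent evidence either. Cdkn1a, which encodes the cell cycle inhibitor p21 and lies at chr17:29090976-29100727 (GRCm38), measured 153, 138, 78.2 and 110.1 CPM in the day 1 libraries and 9.95, 8.54 and 8.23 CPM in the day 4 libraries. Every day 1 value was several times above every day 4 value, and the control mean was 6.38 ± 1.40 CPM. Its log2 change was -3.57 ± 0.19 (adjusted p = 1.8e-06), and the day 1 mean was 13.5 times the day 4 mean. Fkbp5, a co-chaperone that restrains the glucocorticoid receptor, stood at 187, 168, 155 and 185 CPM on day 1 and 93.9, 87.8 and 81.6 CPM on day 4. All day 4 values were lower than all day 1 values and higher than all 4 controls, which averaged 56.0 ± 4.23 CPM, and the log2 change was -0.97 ± 0.09 (adjusted p = 7.8e-05).

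Other members of both lists fell to different levels. Pdk4, a kinase that shuts pyruvate out of the mitochondrial cycle, went from 23.1, 23.6, 30.1 and 16.8 CPM to 7.37, 4.93 and 5.51 CPM, with a log2 change of -1.80 ± 0.18 (adjusted p = 1.1e-04) and a control mean of 7.44 ± 1.16. The log2 changes were -1.28 ± 0.12 for Ddit4, an inhibitor of mTOR signaling, -1.47 ± 0.16 for Arl4d, a small GTPase, and -2.58 ± 0.19 for the kinase gene Map3k6. Sgk1, a kinase that regulates ion transport, measured 264, 225, 182 and 224 CPM on day 1 and 129, 73.2 and 135 CPM on day 4, and day 4 replicate 4 was the lowest of its group. Its log2 change was -1.02 ± 0.19 (adjusted p = 0.0033), and on day 4 it was 1.11 ± 0.17 log2 units above controls. Tsc22d3 (GILZ), a classical target, was spread widely on day 1, from 41.9 to 97.7 CPM, overlapped with day 4, and did not pass the test, at -0.55 ± 0.23 (adjusted p = 0.096), although it passed without day 1 replicate 1. The receptor gene itself, Nr3c1, measured 51.1 ± 5.36 CPM on day 1 and 55.2 ± 1.18 CPM on day 4, with a log2 change of 0.11 ± 0.10 (adjusted p = 0.42) that did not pass.

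On day 4, 11 of the 18 genes of the study's list were above controls at the p threshold, where 4.85% of all genes differed in either direction. The list median was 1.28 log2 units from controls on day 1 and 0.38 on day 4. Plin4, a coat protein of lipid droplets, was the furthest from controls among the further list of 20 genes. It measured 77.3, 167, 118 and 128 CPM on day 1, 29.3, 26.4 and 25.7 CPM on day 4 and 4.79 ± 0.840 CPM in controls, so that the day 4 libraries lay between both groups without overlap. The log2 change from day 1 was -2.09 ± 0.20 (adjusted p = 5.9e-05) and the difference of day 4 from controls 2.29 ± 0.13 (adjusted p = 9.8e-06). Hif3a, a hypoxia-related transcription factor, was also in between, at 23.2 ± 1.29, 8.68 ± 0.800 and 2.86 ± 0.709 CPM in the same order.

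**Figure D2:**
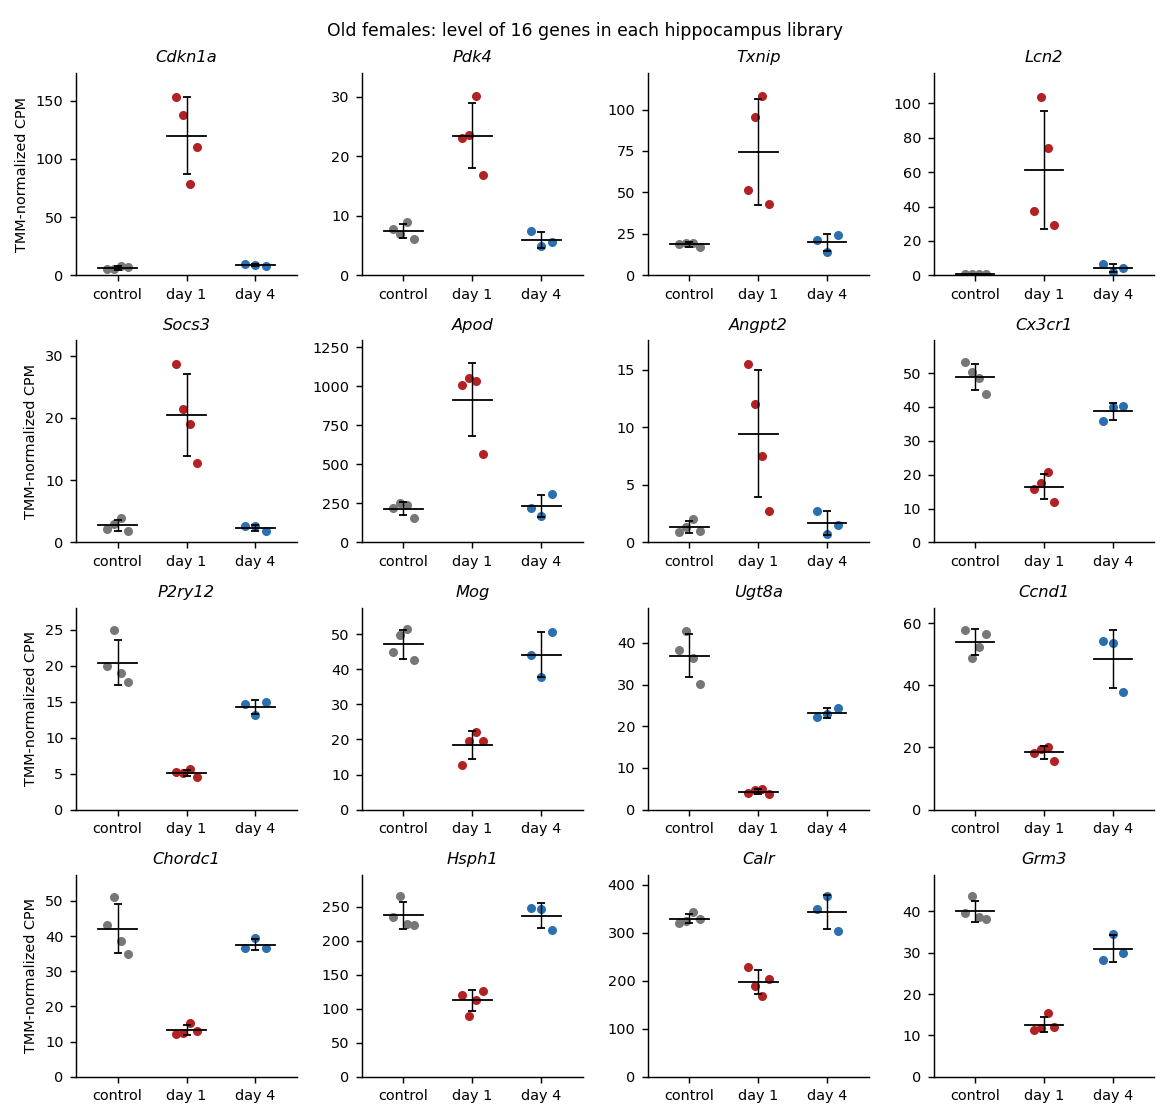
CPM of 16 genes in each old female library (points; gray, control; red, day 1; blue, day 4), with the group mean (long line) and SD (bar), each panel on its own linear axis from 0. In 15 of the panels no day 4 library overlaps a day 1 library, and Angpt2 is the exception, with a day 4 value of 2.76 CPM beside a day 1 value of 2.75 CPM.

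Genes of cytokine and acute phase signaling were mostly lower on day 4. Of 46 listed genes, 26 were expressed enough to be tested, 17 fell (65.4%, against 10.2% of all genes) and 2 rose, with a median log2 change of -0.73. The share depends on the filter, a mean over both days, which Socs3 and Cd14 passed by their day 1 values. Without the filter 24 of 46 fell and 2 rose, beside 1713 falls among 27505 genes. The cytokine genes Il1b, Il6, Tnf and Ccl2 were below the expression threshold. Lcn2 (lipocalin 2, an iron-binding acute phase protein, chr2:32384633-32388252) measured 37.5, 104, 74.0 and 29.4 CPM on day 1 and 6.59, 2.07 and 4.53 CPM on day 4, with 0.930 ± 0.0975 CPM in controls. The groups did not overlap, the day 1 libraries spread over several-fold, and every day 4 library was above every control library. Its log2 change was -3.45 ± 0.40 (adjusted p = 2.0e-04). Neutrophils also express Lcn2, and the 7 measured neutrophil and monocyte markers summed to 12.3 to 27.97 CPM on day 1, 13.6 to 21.9 CPM on day 4 and 14.3 to 27.99 CPM in controls, with none at 0 throughout the 7 libraries. Their part in the Lcn2 values was not tested.

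Socs3, the feedback inhibitor of STAT3, measured 28.7, 21.3, 19.0 and 12.8 CPM on day 1 and 2.62, 2.598 and 1.81 CPM on day 4, and the day 4 values fell within the range of controls, which averaged 2.74 ± 0.940 CPM. The log2 change was -2.64 ± 0.22 (adjusted p = 3.8e-05). Osmr, the receptor of oncostatin M, went from 40.0, 29.6, 25.5 and 27.2 CPM to 6.94, 4.97 and 5.40 CPM, a log2 change of -2.21 ± 0.16 (adjusted p = 1.8e-05). Cd14, a co-receptor for bacterial lipopolysaccharide, was split on day 1, with 49.4 and 47.5 CPM in replicates 1 and 2 and 13.8 and 17.4 CPM in replicates 3 and 4. Even the lower pair exceeded all day 4 values, which were 3.79, 3.09 and 2.26 CPM, and the log2 change was -2.84 ± 0.38 (adjusted p = 4.9e-04). Stat3 itself, the transcription factor Cebpd and the protease inhibitor Serpina3n also fell, with log2 changes of -0.98 ± 0.11, -1.41 ± 0.16 and -1.58 ± 0.19. The members that rose were Cxcl12, a chemokine made constitutively by vessels and neurons, at 1.10 ± 0.18 (adjusted p = 0.0016), and Il33, an alarmin of glia, at 0.76 ± 0.12 (adjusted p = 0.0012). On day 1 they were below controls, at -1.51 ± 0.16 and -0.99 ± 0.13.

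Reactive astrocyte genes gave the lowest median of all lists, -1.32, with 10 of 15 lower (66.7%, against 10.2% of all genes) and only Gap43, a growth protein of neurons, higher. Without the filter 12 of 20 were lower and 1 higher. Gfap, the astrocyte intermediate filament, measured 926, 987, 869 and 788 CPM on day 1 and 541, 486 and 397 CPM on day 4. The groups did not overlap, the log2 change was -0.92 ± 0.12 (adjusted p = 3.8e-04), and the difference of day 4 from controls (641 ± 90.3 CPM) was -0.43 ± 0.13, a call lost without control replicate 3 or day 4 replicate 4 or 7. Aspg, an asparaginase gene, ranged from 7.23 to 27.3 CPM on day 1 and from 1.93 to 2.90 CPM on day 4, a log2 change of -1.99 ± 0.34 (adjusted p = 0.0018). The markers of astrocytes as a whole summed to 3533 to 3896 CPM on day 1 and 3122 to 3281 CPM on day 4. Of 21 genes of astrocyte transport and metabolism, 6 were called (28.6%, near the 23.2% of all genes). Of these, 4 fell, led by Agt (angiotensinogen) at -1.12 ± 0.21, and 2 rose, Slc7a10 at 0.62 ± 0.17 and Gja1 at 0.50 ± 0.08. The Slc7a10 call was lost without day 4 replicate 2 or 4, and 4 members rose without day 1 replicate 1.

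Among interferon and antigen presentation genes, which cells raise in response to infection, the median log2 change was -0.29. Of 18 tested, 4 fell (Ifitm2, Irgm1, Tap1 and H2-D1, with log2 changes of -0.77 to -1.07) and none rose, so that 22.2% were called, near the 23.2% of all genes. The number that fell was 9 without day 1 replicate 4, and 1 gene rose without day 1 replicate 3. The Tap1 call was lost without day 4 replicate 4 or 7, and Ifitm2 and H2-D1 share sequence with related genes, so their values are uncertain. Among 9 complement genes, 2 fell, C4b and Itgb2 (22.2% called, near the 23.2% of all genes), and 6 did without day 1 replicate 4. C4b measured 334, 389.5, 392 and 254 CPM on day 1 and 215, 146 and 156 CPM on day 4, and differed from the control mean of 291 ± 43.1 CPM by -0.76 ± 0.14 log2 units on day 4. Its reads cannot be fully separated from C4a, with which it shares 34.6% of its 50-base stretches. A further list of 15 immune genes had 9 lower (60%, against 10.2% of all genes) and 1 higher (Trem2). Most of them are genes that the study names from these libraries, so the direction of the list is not independent evidence. Sh2b2, Il4ra, Pglyrp1 and Fcgr3 had log2 changes of -1.09 to -1.53.

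Genes of resting microglia rose. Of 12 tested, 9 were higher (75%, against 13% of all genes) and none lower on day 4, with a median log2 change of 0.97, the highest of all lists. Leaving out single libraries gave 6 to 10 higher members. Of the 3 members averaging at least 50 CPM none was called, and their median was 0.25. P2ry12, the ADP receptor that guides microglial processes, measured 5.23, 5.16, 5.59 and 4.58 CPM on day 1 and 14.7, 13.2 and 15.02 CPM on day 4. The day 4 libraries were nearly alike, well above day 1, and below every control library (mean 20.5 ± 3.18 CPM). The log2 change was 1.32 ± 0.13 (adjusted p = 7.8e-05) and the difference of day 4 from controls was -0.48 ± 0.12, a call lost without day 4 replicate 4. Cx3cr1, the fractalkine receptor (chr9:119901616-120069879), rose from 15.6, 17.6, 20.8 and 11.8 CPM to 35.9, 39.9 and 40.3 CPM, a log2 change of 1.21 ± 0.16 (adjusted p = 3.8e-04). Olfml3 went from 2.67, 6.94, 5.04 and 2.02 CPM to 16.8, 19.4 and 20.2 CPM (2.04 ± 0.28, adjusted p = 5.2e-04) and Tmem119 from 5.62, 10.5, 14.8 and 4.58 CPM to 21.8, 24.5 and 20.3 CPM (1.35 ± 0.29, adjusted p = 0.0069), and in both the lowest library was day 1 replicate 4. Csf1r and Sparc did not pass, at 0.25 and -0.09.

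Activated microglia genes did not follow as a group. Of 14 tested, 1 rose and 1 fell (14.3% called, against 23.2% of all genes), with a median of -0.07. Spp1 (osteopontin) fell from 23.03, 25.8, 33.6 and 14.7 CPM to 7.19, 3.58 and 4.08 CPM (-2.08 ± 0.26, adjusted p = 2.8e-04), and Trem2, a lipid receptor, rose from 9.68 ± 2.26 to 15.1 ± 0.677 CPM (0.61 ± 0.16, adjusted p = 0.017), a call lost without day 4 replicate 7. The summed microglial markers were 227 to 333 CPM on day 1, 324 to 344 CPM on day 4 and 334 to 411 CPM in controls. In whole tissue, fewer cells of a type and less RNA per cell cannot be told apart.

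Myelin and oligodendrocyte genes also rose, with 21 of 31 higher (67.7%, against 13% of all genes), 2 lower and a median of 0.55. Ugt8a, the enzyme that makes the galactolipid of myelin, measured 3.93, 4.78, 4.89 and 3.65 CPM on day 1 and 22.2, 22.9 and 24.4 CPM on day 4, with 37.0 ± 5.26 CPM in controls. Both groups of values were narrow and far apart, the log2 change was 2.19 ± 0.13 (adjusted p = 5.1e-06), and the difference of day 4 from controls was -0.64 ± 0.11. Mog, a surface protein of myelin, rose from 12.7, 19.6, 21.97 and 19.6 CPM to 44.1, 37.7 and 50.6 CPM (1.23 ± 0.17, adjusted p = 5.3e-04), and its day 4 values overlapped those of controls (47.1 ± 4.09 CPM). Plxnb3, a semaphorin receptor, rose by 1.38 ± 0.14 and Ermn, a cytoskeletal protein of oligodendrocytes, by 1.13 ± 0.14 log2 units.

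Mbp and Mobp, which encode basic proteins of the myelin sheath and were abundant, did not pass the test. Mbp measured 2219 ± 141 CPM on day 1 and 2104 ± 119 CPM on day 4, with a log2 change of -0.08 ± 0.10 (adjusted p = 0.62). Mobp measured 943 ± 99.0 and 956 ± 89.7 CPM, with 0.02 ± 0.11 (adjusted p = 0.9). The members that fell were Myrf, a transcription factor of myelin genes, at -0.40 ± 0.10, and Apod (apolipoprotein D, a lipid carrier also made by astrocytes and vessel-associated cells), which measured 1007, 1057, 1035 and 567 CPM on day 1 and 221, 173 and 310.4 CPM on day 4, a log2 change of -1.96 ± 0.23 (adjusted p = 2.1e-04). Oligodendrocyte markers summed to 4023 to 4332 CPM on day 1, 4258 to 4879 CPM on day 4 and 4529 to 5735 CPM in controls. The list median was -0.78 from controls on day 1 and -0.25 on day 4, and 9 of 33 members were called below controls on day 4, where 4.85% of all genes differed in either direction.

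Among 24 genes of sterol biosynthesis, 11 rose (45.8%, against 13% of all genes), 1 fell and the median was 0.42. Msmo1 measured 34.6, 27.8, 41.7 and 44.3 CPM on day 1 and 72.9, 79.9 and 51.1 CPM on day 4 (0.85 ± 0.18, adjusted p = 0.0054), with day 4 replicate 7 the lowest of its group. Mvd, an enzyme of the mevalonate steps, rose by 0.79 ± 0.18, a call lost without day 4 replicate 4. Lss, the cyclase that forms the sterol ring, moved the other way, from 40.3, 39.3, 33.5 and 37.5 CPM to 21.5, 22.3 and 22.5 CPM (-0.74 ± 0.10, adjusted p = 4.1e-04). The count of rising members was 4 without day 4 replicate 4, 5 without day 4 replicate 2, 12 without day 4 replicate 7, 5 without both libraries high in choroid plexus genes and 2 under the unmoderated F test. Of 15 fatty acid synthesis genes 6 rose (40%, against 13% of all genes) and none fell, and 4 to 5 rose when any 1 library was left out. The elongase Elovl6 led them, going from 20.4, 21.1, 24.7 and 24.5 CPM to 47.9, 46.6 and 43.1 CPM (0.99 ± 0.10, adjusted p = 1.3e-04).

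**Figure D3:**
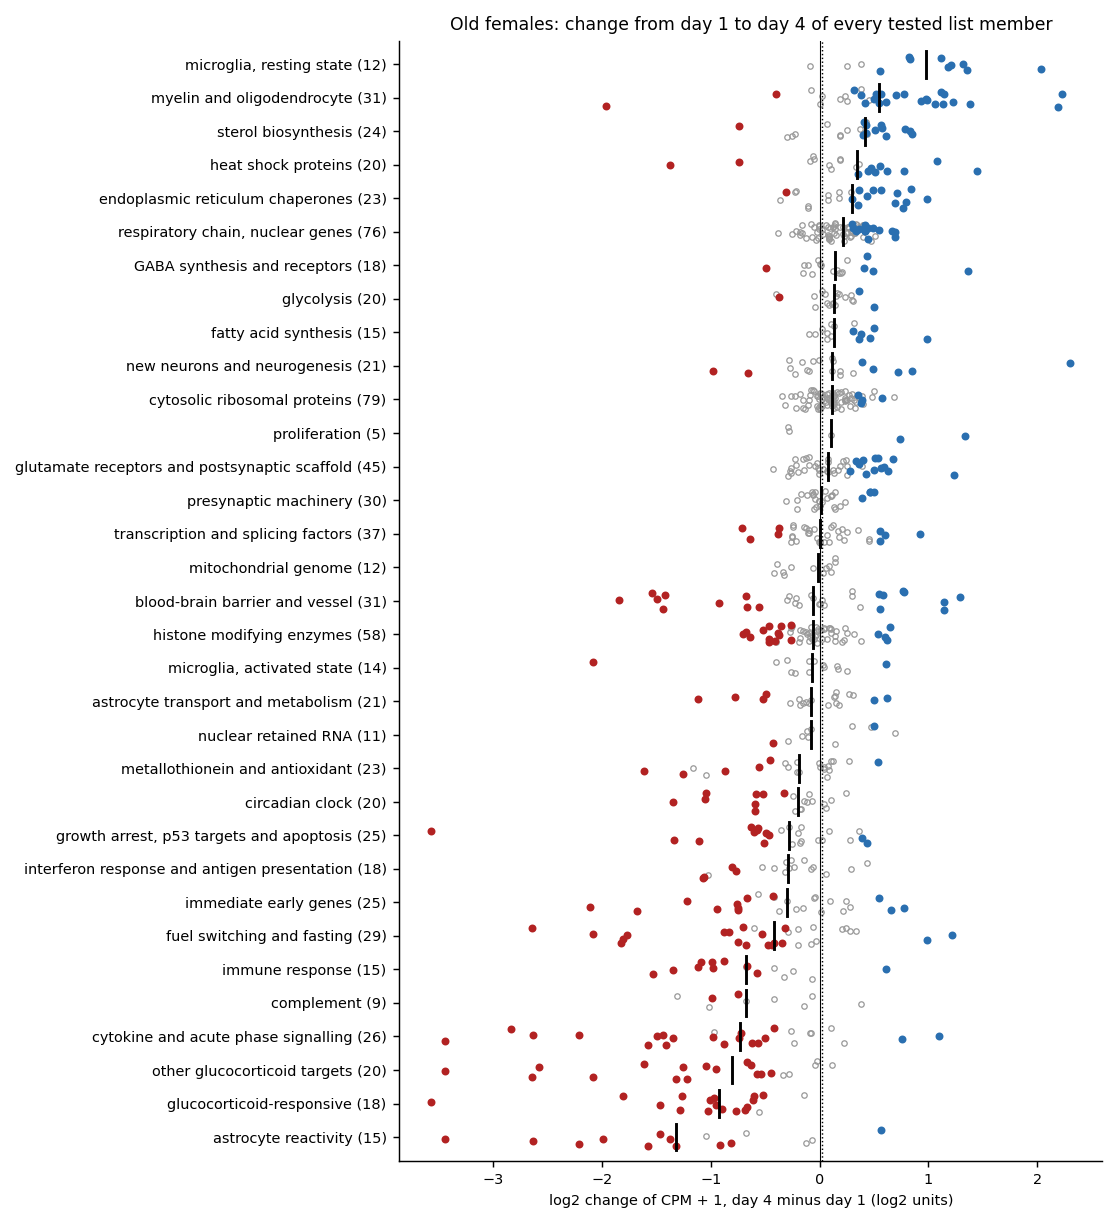
Log2 change from day 1 to day 4 in old females of every tested member of 33 gene lists (number tested in brackets), ordered by list median (thick bar). Filled points passed p below 0.01 (blue higher, red lower), open points did not, and the dotted line is the median of all genes (0.02); medians run from -1.32 for astrocyte reactivity to 0.97 for resting microglia.

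Vessel and blood-brain barrier genes moved both ways, with 8 of 31 higher (25.8%, against 13% of all genes), 9 lower (29.0%, against 10.2% of all genes) and a median of -0.06. Angpt2, a ligand that loosens vessels, measured 15.5, 12.1, 7.51 and 2.75 CPM on day 1 and 2.76, 0.715 and 1.55 CPM on day 4. Day 1 replicate 4 lay within the day 4 range and the other 3 were above it, and the log2 change was -1.84 ± 0.43 (adjusted p = 0.01). Cdh5, the endothelial cadherin, fell from 24.6, 37.2, 22.7 and 23.7 CPM to 8.25, 7.83 and 9.36 CPM (-1.54 ± 0.16, adjusted p = 1.3e-04). Its highest value was in day 1 replicate 2, the library with the most endothelial marker RNA, whose part in the result was not tested, and the remaining day 1 values also exceeded all of day 4. Icam1, the leukocyte adhesion molecule, Lrg1, which promotes vessel growth, and Mfsd2a, the lipid transporter of the barrier, fell as well, at -1.49 ± 0.31, -1.43 ± 0.32 and -1.42 ± 0.15.

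The rising vessel genes included Kdr, the main receptor of vascular endothelial growth factor, which went from 4.48, 4.93, 4.56 and 4.73 CPM to 8.29, 7.34 and 10.8 CPM (0.77 ± 0.15, adjusted p = 0.0043) and stayed below controls (14.9 ± 1.94 CPM). Apln (apelin) rose by 1.29 ± 0.17, Cav1 (caveolin 1) by 1.15 ± 0.17 and Slco1c1, a thyroid hormone transporter, by 1.14 ± 0.18 log2 units. Leaving out day 4 replicate 2 or 7 left 5 higher members in each case. Pecam1 and Cldn5, which mark endothelial cells in general, did not pass, at 0.02 ± 0.20 and -0.28 ± 0.24.

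Genes of fuel switching and fasting fell, with 16 of 29 lower (55.2%, against 10.2% of all genes), 2 higher and a median of -0.42. Txnip, which lowers glucose uptake, measured 51.6, 95.2, 108 and 42.9 CPM on day 1 and 21.3, 14.3 and 24.4 CPM on day 4, a log2 change of -1.77 ± 0.29 (adjusted p = 0.0016), with day 4 near the control mean of 18.7 ± 1.38 CPM. Ucp2, a mitochondrial carrier, fell from 55.7, 73.3, 82.7 and 47.1 CPM to 26.2, 13.7 and 14.0 CPM (-1.82 ± 0.23, adjusted p = 3.1e-04). Angptl4, an inhibitor of lipoprotein lipase, changed by -2.64 ± 0.29 (adjusted p = 1.7e-04). The members that rose serve the uptake and use of ketone bodies: Slc16a7 (MCT2), the neuronal transporter, went from 5.97, 7.13, 6.22 and 4.61 CPM to 15.1, 14.6 and 15.6 CPM (1.21 ± 0.14, adjusted p = 2.3e-04), and Oxct1, which starts the use of ketone bodies, from 95.5, 90.5, 111 and 104 CPM to 189, 209 and 201 CPM (0.99 ± 0.09, adjusted p = 5.8e-05). Of 20 glycolysis genes 3 were called (15%, against 23.2% of all genes), and 2 rose, Eno1 and Pdhb, which share 26.0% and 11.4% of their 50-base stretches with other genes and are uncertain. Pfkfb3, an activator of glycolysis, fell by 0.37 ± 0.12, a call lost without any library other than day 1 replicate 4, and 4 genes rose without day 1 replicate 1.

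The neuronal lists had 13.3 to 28.9% of their members called, on either side of the 23.2% of all genes. Of 30 genes of the presynaptic machinery 4 rose (13.3%, against 13% of all genes), none fell and the median was 0.02. Snap25, a SNARE protein of synaptic vesicle release, measured 1203 ± 267 CPM on day 1 and 1184 ± 102 CPM on day 4 (adjusted p = 0.99). Of 45 glutamate receptor and postsynaptic genes 13 rose (28.9%, against 13% of all genes) and none fell, with a median of 0.08. That none fell depended on the scaling and the fit: 4 fell under median of ratios scaling, 4 with values scaled to sum to 1000000, 7 after the GC correction and 3 in 1 fit of all 12 groups. Grm3, a metabotropic receptor found on glia and neurons, led them, from 11.4, 11.7, 15.3 and 12.1 CPM to 28.3, 34.6 and 30.0 CPM (1.24 ± 0.13, adjusted p = 1.1e-04), followed by Grm7 at 0.67 ± 0.13 and the NMDA receptor subunit Grin3a at 0.63 ± 0.11. Among 18 GABA genes 4 rose and 1 fell (27.8% called, near the 23.2% of all genes), and 2 rose without day 4 replicate 4. Gabra2, a receptor subunit, measured 15.4, 11.1, 14.8 and 21.2 CPM on day 1 and 42.1, 41.3 and 38.7 CPM on day 4, with the 3 day 4 libraries within a few CPM of each other, and rose by 1.36 ± 0.17 (adjusted p = 2.8e-04).

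Immediate early genes, which neuronal activity and stress switch on within minutes, fell in 9 of 25 cases (36%, against 10.2% of all genes) and rose in 3. Fos measured 30.9, 23.2, 11.6 and 16.3 CPM on day 1 and 5.28, 9.07 and 3.02 CPM on day 4 (-1.68 ± 0.33, adjusted p = 0.004), and Dusp1, a phosphatase that glucocorticoids also raise, 31.3, 30.4, 27.0 and 22.8 CPM on day 1 and 9.35, 14.9 and 10.5 CPM on day 4 (-1.22 ± 0.16, adjusted p = 4.0e-04). In neither did the days overlap. Egr1 and Arc did not pass, at -0.05 ± 0.20 and 0.22 ± 0.22, and both were highest in day 4 replicate 4. The growth factor gene Bdnf rose by 0.55 ± 0.16, a call lost without any library other than day 1 replicate 1 or day 4 replicate 7. The orphan receptor genes Nr4a2 and Nr4a3 rose, Nr4a3 from 34.6, 33.8, 33.9 and 33.6 CPM to 61.7, 71.3 and 46.8 CPM (0.78 ± 0.13, adjusted p = 0.0015). The number that fell was 5 without day 4 replicate 7 and 5 without the libraries high in choroid plexus genes. Of 20 clock genes 8 fell (40%, against 10.2% of all genes) and none rose. Per1, which glucocorticoids also raise, went from 163, 172, 152 and 179 CPM to 78.2, 87.1 and 76.1 CPM (-1.04 ± 0.09, adjusted p = 4.4e-05). Ciart changed by -1.35 ± 0.12 and Cry1 by -1.05 ± 0.14, while Arntl, Clock and Dbp did not pass, at -0.11, 0.11 and 0.04.

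Genes of the endoplasmic reticulum, where secreted and membrane proteins fold, rose in 12 of 23 cases (52.2%, against 13% of all genes), with Herpud1 lower at -0.31 ± 0.10, a call lost without any library other than day 1 replicate 3 or day 4 replicate 4, and a median of 0.29. A known sequence shared by many of their promoters is the ER stress response element, in which CCAAT and CCACG stand a fixed distance apart. It was searched, as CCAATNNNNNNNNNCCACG, on both strands in the RefSeq windows of 250 bases before to 50 bases after each gene start (GRCm38.p6). It was found in 7 of the 19 list members with a window, in 0.160% of all tested genes with a window and in 0.119% of all windows. Of the 7 members that hold it, 6 rose (Calr, Canx, Creld2, Hsp90b1, Hspa5 and Pdia6) and Dnajc3 did not pass, at -0.22 ± 0.11. Of the 12 members without it, 4 rose and 1 fell. Because they show members that moved together and hold the same element, 3 of these windows are given, 5′ to 3′ on the strand of the gene and without the transcribed bases, with the element in capitals (in Calr it lies on the opposite strand): Hspa5 (chr2:34771840-34772089, + strand), Calr (chr8:84846932-84847181, - strand) and Pdia6 (chr12:17266339-17266588, + strand).
Hspa5: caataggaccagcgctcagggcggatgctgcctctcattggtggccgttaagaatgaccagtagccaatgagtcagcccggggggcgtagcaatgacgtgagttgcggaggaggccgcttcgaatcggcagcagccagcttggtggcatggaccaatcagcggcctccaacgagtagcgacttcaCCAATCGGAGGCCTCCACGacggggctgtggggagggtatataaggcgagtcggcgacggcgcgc
Calr: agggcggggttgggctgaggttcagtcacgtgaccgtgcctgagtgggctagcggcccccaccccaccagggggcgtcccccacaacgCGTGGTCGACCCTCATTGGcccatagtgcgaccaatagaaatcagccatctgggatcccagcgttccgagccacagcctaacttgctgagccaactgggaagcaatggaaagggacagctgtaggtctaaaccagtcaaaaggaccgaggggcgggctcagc
Pdia6: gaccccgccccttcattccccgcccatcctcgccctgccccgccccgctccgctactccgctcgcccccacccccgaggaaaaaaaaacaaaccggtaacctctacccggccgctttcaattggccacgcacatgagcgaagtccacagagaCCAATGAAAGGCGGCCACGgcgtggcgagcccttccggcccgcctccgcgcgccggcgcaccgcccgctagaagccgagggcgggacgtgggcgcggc
A match is a description of the letters and not a measured binding site.

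Hspa5, the chaperone also called BiP, measured 167, 131, 127 and 133 CPM on day 1 and 221, 211 and 159.9 CPM on day 4, with day 1 replicate 1 above day 4 replicate 7, and rose by 0.49 ± 0.13 (adjusted p = 0.018), a call lost without day 4 replicate 2 or 4. The calls of Hsp90b1 and Canx were lost without the same libraries. Calr (calreticulin) went from 228, 188, 169 and 204 CPM to 349, 376 and 304 CPM without overlap (0.80 ± 0.11, adjusted p = 7.0e-04), and Pdia6, a disulfide isomerase, from 55.7, 48.4, 40.7 and 41.4 CPM to 91.5, 95.0 and 66.7 CPM (0.84 ± 0.14, adjusted p = 0.002). Sdf2l1 rose by 0.99 ± 0.20 and Pdia4 by 0.77 ± 0.17 log2 units. On day 4 none of the list was called against controls, beside 4.85% of all genes, and its median was -0.31 from controls on day 1 and -0.03 on day 4. The number of rising members was 7 without day 4 replicate 2, 7 without day 4 replicate 4 and 7 without the 2 libraries high in choroid plexus genes.

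Heat shock genes, which encode chaperones of the cytosol, rose in 9 of 20 cases (45%, against 13% of all genes) and fell in 2, with a median of 0.34. Chordc1, a partner of HSP90, measured 12.03, 12.4, 15.3 and 13.1 CPM on day 1 and 36.7, 39.4 and 36.6 CPM on day 4, and Hsph1, of the HSP110 family, 120.1, 89.9, 112 and 127 and 248, 246 and 216 CPM. Neither overlapped between days, and the log2 changes were 1.45 ± 0.11 (adjusted p = 1.9e-05) and 1.1 ± 0.12 (adjusted p = 1.5e-04). Hspb1, a small chaperone also raised in reactive astrocytes, fell by 1.38 ± 0.26, with 50.1% of its 50-base stretches shared with a pseudogene, and Bag3 fell by 0.74 ± 0.19, a call lost without day 4 replicate 2 or 7. The stress-induced Hspa1a and Hspa1b did not pass, at -0.06 and 0.10. The heat shock element, GAANNTTCNNGAA or TTCNNGAANNTTC on either strand, was in 4 of 15 members with a window (Chordc1, Hsph1, Hspd1 and Hspe1) and in 0.605% of tested genes. Of the 4 members that hold it 2 rose, and of the 11 without it 4 rose and 2 fell. The window of Chordc1, which had the largest rise of this list, is shown up to 30 bases past the gene start with its overlapping matches in capitals (chr9:18292017-18292296, + strand).
Chordc1: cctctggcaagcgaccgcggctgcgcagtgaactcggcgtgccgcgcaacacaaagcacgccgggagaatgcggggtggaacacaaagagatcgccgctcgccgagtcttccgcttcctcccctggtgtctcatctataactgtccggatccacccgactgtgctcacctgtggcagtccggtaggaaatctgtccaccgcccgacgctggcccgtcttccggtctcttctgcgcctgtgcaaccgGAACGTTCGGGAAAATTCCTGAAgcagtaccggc
Of the other elements searched on both strands, TTCNNNGAA, a STAT site, was in 5 of 19 cytokine list members and 3 of 14 astrocyte reactivity members against 8.0% of tested genes. TCACNCCAC, a sterol response element, was in 1 of 18 sterol genes against 1.43%. The glucocorticoid response element, GNACANNNTGTNC, was in 1 of 18 genes of the study's list and 3 of 17 genes of the further list against 0.365%. The E-box CACGTG was in 5 of 18 clock genes against 12.3%. Of the cytokine genes, 5 of 5 that hold the STAT site fell, beside 9 of 14 without it. For astrocyte genes these were 3 of 3 and 7 of 11, with Socs3 counted in both lists. In the study's glucocorticoid list 1 of 1 and 15 of 17 fell, and in the further list 2 of 3 and 11 of 14. Clock genes that fell were 4 of 5 and 4 of 13. In the sterol list 1 of 1 rose, beside 6 of 17. Whether members with and without an element differ was not tested.

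Growth arrest and apoptosis genes fell in 10 of 25 cases (40%, against 10.2% of all genes) and rose in 2, with a median of -0.28. None rose without day 1 replicate 1, without day 4 replicate 4 or without day 4 replicate 7. After Cdkn1a the furthest were Trp53inp1 at -1.34 ± 0.16 and Gadd45g at -1.11 ± 0.20. Of 18 proliferation genes 5 were expressed enough to be tested, which leaves out Mki67 and Top2a. Of these 2 rose (40%, against 13% of all genes), the cyclin genes Ccnd1 and Ccnd2. Ccnd1 went from 18.4, 19.6, 20.1 and 15.6 CPM to 54.2, 53.6 and 37.7 CPM (1.34 ± 0.14, adjusted p = 1.3e-04), with 23.4% of its exon bases overlapping another gene. Of 21 genes of new neurons and neurogenesis 5 rose (23.8%, against 13% of all genes), 3 without day 4 replicate 7, and 2 fell, 1 without day 4 replicate 4 or 7. Hes5, a Notch target of neural stem cells and astrocytes, rose from 1.18, 1.002, 1.10 and 2.25 CPM to 7.26, 15.1 and 10.6 CPM (2.31 ± 0.25, adjusted p = 1.4e-04), and Dcx, which marks new neurons, did not pass, at -0.01 ± 0.13. Of 23 metallothionein and antioxidant genes 5 fell (21.7%, against 10.2% of all genes) and 1 rose, a call lost without day 4 replicate 2, with a median of -0.19. The metallothionein Mt1, which binds zinc and responds to glucocorticoids, fell from 482, 529.8, 503 and 444 CPM to 219.6, 185 and 208 CPM (-1.26 ± 0.09, adjusted p = 1.9e-05). Mt2 fell by 1.61 ± 0.13, and 73.5% of its exon bases overlap the opposite-strand gene Gm45774, so its reads are uncertain.

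Among histone modifying enzymes 13 of 58 fell (22.4%, against 10.2% of all genes) and 4 rose, 2 without day 4 replicate 4, with Kmt2b at -0.70 ± 0.09 and Hdac9 at 0.65 ± 0.12 log2 units. Transcription and splicing factors were called at about the share of all genes (21.6%), with 4 higher and 4 lower of 37, led by Tra2a at 0.92 ± 0.14 and Med12 at -0.72 ± 0.11, and 2 were lower without day 4 replicate 4. Nuclear retained RNAs gave 1 higher and 1 lower of 11 (18.2% called, against 23.2% of all genes). Of 76 nuclear genes of the respiratory chain 15 rose (19.7%, against 13% of all genes) and none fell, with a median of 0.21, and 7 rose without day 4 replicate 4 and 8 without day 1 replicate 2, without day 4 replicate 2 or without both libraries high in choroid plexus genes. In 1 fit of all 12 groups 6 rose, and under the unmoderated F test 5. Cytosolic ribosomal protein genes, a family with many near-identical copies, gave 4 higher of 79 (5.06%, against 13% of all genes). That count was 10 without day 1 replicate 4, 1 without day 4 replicate 2 or 4 and 2 without day 4 replicate 7. None of the 12 genes of the mitochondrial genome passed.

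**Figure D4:**
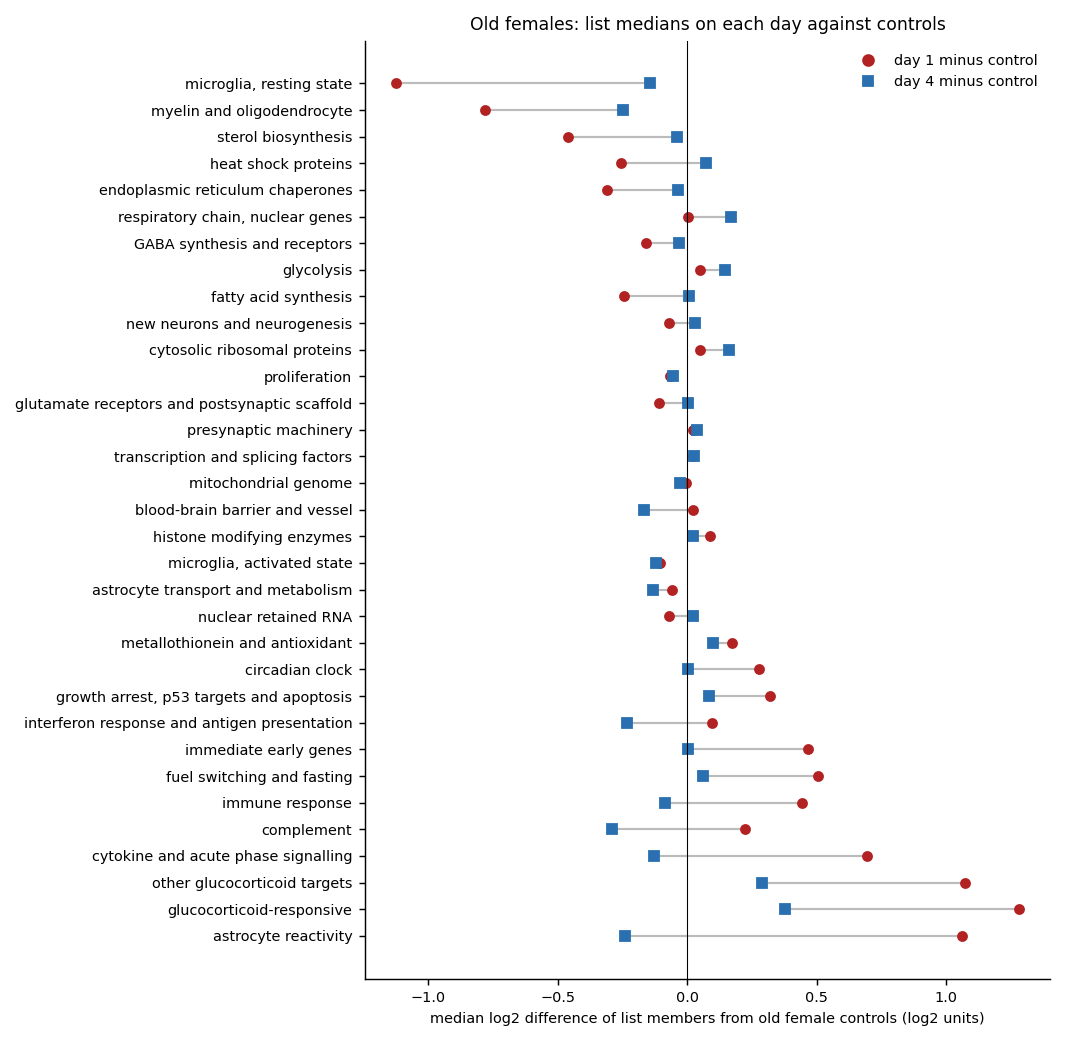
Median log2 difference of list members from the 4 old female controls on day 1 (red circles) and day 4 (blue squares), for the 33 lists in the order of their change between days. Each median is over the members that passed the filter in that comparison, so the genes can differ between days. For day 1 and day 4 these were 26 and 19 cytokine genes, and 14 and 11 astrocyte reactivity genes. On day 4 all medians of tested members lie within 0.4 log2 units of controls, the furthest being the glucocorticoid-responsive list at 0.38. On day 1 they run from -1.12 for resting microglia to 1.28 for the glucocorticoid-responsive genes.

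Several of the largest changes fell outside these groups. Ctla2a, an inhibitor of cysteine proteases, measured 79.0, 78.2, 74.7 and 50.9 CPM on day 1, 4.32, 2.84 and 7.64 CPM on day 4 and 1.93 ± 0.232 CPM in controls, a log2 change of -3.66 ± 0.24 (adjusted p = 7.7e-06). It shares 14.5% of its 50-base stretches with other genes, most with Ctla2b, and is uncertain to that extent. Pnpla2, the lipase that opens triglyceride stores, fell from 97.8, 108, 99.7 and 91.2 CPM to 17.99, 16.3 and 18.04 CPM, the smallest p of the comparison (-2.44 ± 0.09, adjusted p = 1.3e-07). Adamts1, a metalloprotease, fell from 71.5, 67.4, 67.3 and 56.2 CPM to 13.6, 13.8 and 14.8 CPM (-2.14 ± 0.10, adjusted p = 1.1e-06), and the related Adamts9 changed by -1.76 ± 0.13. Akap12, a scaffold of kinase A, fell from 76.5, 154, 80.8 and 84.4 CPM to 24.4, 18.4 and 22.1 CPM (-2.09 ± 0.21, adjusted p = 9.0e-05), and its high day 1 value was in the library with the most endothelial and pericyte marker RNA. Tspan4, a tetraspanin, fell by 1.91 ± 0.13 log2 units.

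Cbfa2t3, a transcriptional corepressor, had the largest rise of the genes averaging at least 20 CPM, from 11.1, 11.4, 9.09 and 9.38 CPM to 46.5, 37.7 and 31.7 CPM (1.81 ± 0.14, adjusted p = 2.2e-05). Lct, the gene of lactase, rose from 13.5, 16.03, 18.4 and 8.14 CPM to 41.4, 54.3 and 45.8 CPM (1.73 ± 0.21, adjusted p = 2.8e-04), again without overlap. Padi2, an enzyme that converts arginine to citrulline in myelin proteins, rose from 11.5, 14.4, 9.79 and 15.2 CPM to 35.9, 41.1 and 39.7 CPM (1.56 ± 0.14, adjusted p = 5.8e-05) and stayed below controls (52.2 ± 6.63 CPM). P4ha1, a collagen prolyl hydroxylase, rose by 1.23 ± 0.13 and Ubxn2b by 1.19 ± 0.13. Gm9755, at 1.17 ± 0.14, shares 92.3% of its stretches with Tufm and is uncertain.

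Whether age altered the change was asked by setting it against the same change in young females (4 libraries per day). Since only old mice died by day 4, age and the selection of survivors cannot be told apart in this comparison. The change from day 1 to day 4 differed in 1169 of 11682 genes (10%), 660 with a more positive and 509 with a more negative change in old females, and 657 passed an adjusted p of 0.05. Gpr17, a receptor of differentiating oligodendrocyte precursors, rose in old females from 3.42, 9.21, 10.01 and 6.28 CPM to 33.0, 32.2 and 25.6 CPM, a log2 change of 2.003 ± 0.26, against 0.00 ± 0.09 in young females, a difference of 2.0 ± 0.30 (adjusted p = 0.0024). Fn3k, which repairs glycated proteins, changed by 1.28 ± 0.11 and 0.06 ± 0.11 (difference 1.22 ± 0.15, adjusted p = 0.0012), and Banp by 1.19 ± 0.13 and 0.00 ± 0.08 (difference 1.18 ± 0.15, adjusted p = 0.0012). Ezr (ezrin), which links membranes to actin, fell from 146, 137, 160.4 and 129 CPM to 80.6, 58.3 and 59.8 CPM in old females and changed by 0.04 ± 0.21 in young females, a difference of -1.15 ± 0.27 (adjusted p = 0.022). Stx17, a SNARE of autophagy, changed by -1.13 ± 0.12 and 0.01 ± 0.10, and Armcx5 by -1.69 ± 0.13 and -0.44 ± 0.14, with differences of -1.14 ± 0.16 (adjusted p = 0.0012) and -1.25 ± 0.20 (adjusted p = 0.003).

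Of the named lists, 7 of 11 resting microglia genes, 8 of 14 astrocyte reactivity genes, 10 of 25 cytokine genes and 7 of 18 glucocorticoid-responsive genes differed in their change, beside 10% of all genes. Cx3cr1 changed by 1.21 ± 0.16 in old and 0.15 ± 0.10 in young females (1.06 ± 0.19, adjusted p = 0.005), and Cdkn1a by -3.57 ± 0.19 and -2.18 ± 0.23 (-1.39 ± 0.34, adjusted p = 0.026). Of 31 myelin and oligodendrocyte genes 7 differed, 6 with a more positive and 1 with a more negative change in old females, beside 10% of all genes. For Mog the changes were 1.23 ± 0.17 and 0.80 ± 0.11, and the difference of 0.43 ± 0.21 did not pass (adjusted p = 0.26). In ER chaperones 1 of 23 genes differed, with list medians of 0.29 in old and 0.33 in young females.

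Sex was examined in the same way against old males (4 libraries per day). The change differed in 3951 of 11686 genes (33.8%), 2185 more positive and 1766 more negative in old females, and 4725 passed an adjusted p of 0.05. The count at the p threshold was 2462 after a correction for GC content. The old male libraries also differed in mitochondrial transcripts, whose list median changed by -1.01 from day 1 to day 4 there and by -0.01 in old females; the part of this in the other differences was not tested. Sbno2, a target of STAT3, fell in old females from 66.5, 69.1, 60.2 and 57.8 CPM to 24.01, 25.8 and 24.7 CPM, a log2 change of -1.32 ± 0.10, and changed by 0.32 ± 0.09 in old males, a difference of -1.63 ± 0.13 (adjusted p = 1.5e-06). Ermn changed by 1.13 ± 0.14 and -0.57 ± 0.10 (difference 1.71 ± 0.18, adjusted p = 1.4e-05), Ttc14 by 0.82 ± 0.15 and -0.99 ± 0.13 (1.81 ± 0.22, adjusted p = 3.4e-05), and Gpr17 by 2.003 ± 0.26 and 0.13 ± 0.09 (1.87 ± 0.29, adjusted p = 1.7e-04). C4b changed by -0.99 ± 0.17 in old females and 0.84 ± 0.14 in old males (-1.83 ± 0.24, adjusted p = 5.9e-05). The differences of Gm8430 and Gm9844, 1.904 ± 0.39 and 1.65 ± 0.44, are uncertain, since 88.2% and 60.8% of their 50-base stretches are shared with other genes, most with Rps27a and Tmsb10. The median change of the cytokine list was -0.73 in old females and 0.12 in old males, and 16 of its 26 genes differed, beside 33.8% of all genes.

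**Figure D5:**
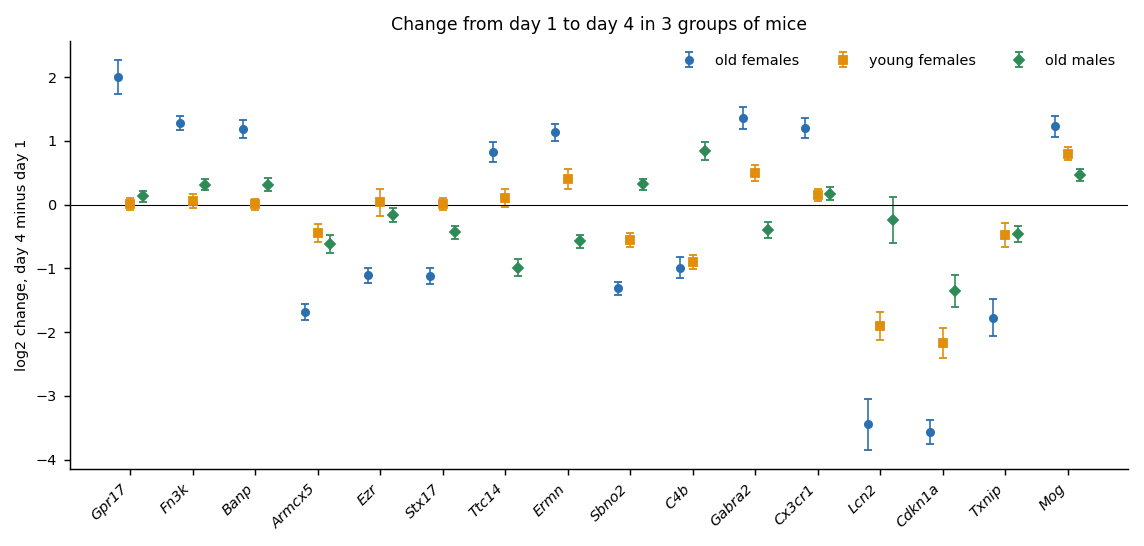
Log2 change from day 1 to day 4 of 16 genes (points, bars are standard errors) in old females (blue, 3 and 4 libraries), young females (orange, 4 and 4) and old males (green, 4 and 4). Of the 3 groups, old females alone lie above 1 log2 unit for Gpr17, Fn3k and Banp and below -1 for Ezr and Stx17, and old males alone lie above 0 for C4b and Sbno2.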

How the data were processed

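The deposited table held TMM-normalized CPM of 28032 genes in 47 libraries. Per the study's methods the authors aligned poly(A) RNA reads from the Ion Proton to mm10 with STAR and scaled them in Partek Flow. Versions, the gene models, the counting tool and the use of strand are not given in the sources used here, so genes that overlap on opposite strands cannot be told apart. Whole reads were not recovered from the CPM: 81.5 to 83.3% of values in the 7 libraries lay within 0.05 reads of a whole number. Depth was estimated from the CPM steps that 1 read makes and limits the precision of genes near 5 CPM.

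Groups came from the sample labels, and every column was matched to a sample. From the CPM, log2(CPM + 1) was tested with limma 3.58.1 (R 4.3.3), with an expression trend in the moderation. The libraries of the groups compared entered each fit, and the filter of a mean of 5 CPM was taken over the same libraries. A gene low on 1 day could thus pass by its values on the other, and the list members tested can differ between comparisons. The call was p below 0.01 before adjustment, as in the study. Benjamini-Hochberg adjusted p-values over all genes tested are given beside many of the values. Differences with young females or old males are the interaction of day and group. The members and gene lists were chosen with earlier results of these data known, so lists are described by counts and medians and not tested. Named genes were the 12 largest rises and 12 largest falls among genes with an adjusted p below 0.05, no overlap of days and a mean of at least 20 CPM, up to 4 called members of each list, and up to 6 genes for each difference; other list members were given by their value after it had been seen. Some genes that this rule names are not reported here, although list counts include them. Fits were tested on simulated data. Coordinates are those of GENCODE vM21 on GRCm38, and promoter windows are those of RefSeq on GRCm38.p6. A gene was marked uncertain where at least 10% of its exon bases overlap another gene, or by the share of its 50-base stretches found in other genes' transcripts. Alternatives were other pseudocounts (0.1 and 5), filters, scalings, a GC correction, an unmoderated test, 1 fit of all 12 groups, a replicate block and leaving out each library. Leaving out the 2 libraries high in choroid plexus genes was chosen after seeing the data. Libraries of other groups entered only the fit of all 12 groups.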

Additional observations from a re-analysis of the deposited data

Results flagged for a closer look

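In 26 of 404 groups of 4 libraries, 1 library stood apart from the other 3 by Dixon's criterion, which chance alone meets in about 1 group of 20; day 4 groups have 3 libraries and were not examined. In day 1 replicate 1, the values concerned were Plxnb3 lowest at 6.96 CPM, Slc30a1 highest at 40.6 CPM and Hspa5 highest at 167 CPM. For day 1 replicate 2 they were Akap12 highest at 154 CPM, Cdh5 highest at 37.2 CPM and Clock lowest at 40.6 CPM. The values of day 1 replicate 3 were Grm3 highest at 15.3 CPM, P4ha1 highest at 23.8 CPM and the sum of choroid plexus markers highest at 4280 CPM. In day 1 replicate 4, the values concerned were Ctla2a lowest at 50.9 CPM, Apod lowest at 567 CPM and Hes5 highest at 2.25 CPM. For control replicate 2 they were Hmox1 highest at 6.45 CPM, Polr2a lowest at 75.1 CPM and the sum of CA2 markers highest at 173 CPM. The values of control replicate 3 were Akap12 highest at 30.8 CPM, Trem2 highest at 18.9 CPM, Aldh1l1 highest at 51.6 CPM, Sox4 highest at 9.79 CPM, Cryab highest at 129 CPM, Ezr highest at 84.1 CPM, Gfap highest at 775 CPM, the sum of choroid plexus markers highest at 2744 CPM and the sum of striatum markers highest at 78.9 CPM. In control replicate 4, the values concerned were Dbp lowest at 31.0 CPM and Dnajc3 lowest at 36.5 CPM.

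By the test of the difference itself, the change from day 1 to day 4 differed between old and young females in 1169 genes. Among the genes described, the differences in log2 change, old minus young, were Gpr17 2.0, Armcx5 -1.25, Fn3k 1.22, Banp 1.18, Ezr -1.15, Stx17 -1.14, Cx3cr1 1.06 and Cdkn1a -1.39. Between old females and old males 3951 genes differed, and the differences, female minus male, were Gm8430 1.904, Gpr17 1.87, Ttc14 1.81, Ermn 1.71, Gm9844 1.65, Sbno2 -1.63 and C4b -1.83.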

How the results depend on the processing

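Of 3136 values of the 181 genes described between days under the alternatives, 2976 kept direction and side of the threshold, 150 lost the call, 10 gained it and no called value changed sign. For the differences with young females and old males, 387 of 388 values kept both, and for day 4 against controls 453 of 483. A minimum of 50 CPM, which tests fewer genes, gave 818 calls between days (432 higher, 386 lower), 318 differences with young females, 1369 with old males, 954 calls for day 1 and 197 for day 4 against controls. Without a filter 1790 differences with young females were called. The GC content correction gave 2462 differences with old males, and 1 fit of all 12 groups gave 335 calls for day 4 against controls. The causes of these last 3 were not tested. Leaving out 1 library gave 912 to 1512 higher genes between days, the lowest without day 4 replicate 4, and 208 to 743 calls for day 4 against controls. A replicate block by label number gave 1754 calls between days, 700 of them lower, 1931 differences with old males and 187 calls for day 4 against controls. Replicate numbers 2 and 4 alone occur on both days. The deviations of these same-numbered libraries correlated by 0.12 and 0.081, and those of differently numbered pairs by -0.35 to 0.35. So few pairs cannot show whether same-numbered libraries share more than a number. The unmoderated F test, which does not borrow the spread of other genes, lost the call of 39 of the 181 described genes, the most of any alternative, and gave 1991 calls between days (1135 higher, 856 lower). Under it 2 sterol, 5 respiratory chain, 7 ER and 5 vessel genes and no ribosomal protein gene were higher, and 3 immediate early, 6 growth arrest, 2 astrocyte transport and 1 interferon genes were lower. Under the block 6 growth arrest genes, 7 histone modifying genes and 5 clock genes were lower. Day 4 rests on 3 libraries, so its SD is the least certain, and genes under 5 CPM were not described by a test.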
